A study of Homo sapiens with 8 samples.

Results

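LINC genes are long intergenic non-protein coding RNA genes that carry a number in place of a descriptive name. This account covers the 194 LINC genes that were expressed in IMR90 cells, out of 1735 LINC genes in the count files (11.2%) and 28265 genes in all; LINC00473 was not considered. Members were chosen by their read counts in these same libraries. A LINC gene was taken when it had at least 10 read pairs in both libraries of at least 1 of 4 conditions and at least 100 pairs over the 8 libraries, so its presence here is not a finding. Of the other 1541 LINC genes, 373 had 0 pairs in every library and 1168 had 1 to 99 pairs in all. At the edge of the rule, LINC00113, LINC02104 and LINC01820 were taken with 100, 103 and 105 pairs, whereas LINC01364, LINC01657 and LINC01931 were left out with 99 each.

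IMR90 is a line of human fetal lung fibroblasts, and all libraries came from wild-type cells of low passage. The control libraries carry the label young, and whether these cells received vehicle is not given. Cells were otherwise treated with ICM (inflachromene, a small molecule that binds the chromatin proteins HMGB1 and HMGB2) for 3 days or for 6 days, or carry the label MetaICM, which neither the labels nor the methods explain, dose and time included. Each of the 4 conditions has 2 libraries of factory RNA-Seq, which profiles RNA attached to sites of active transcription, and the study used it to follow transcription as ICM-treated fibroblasts entered a senescence-like state.

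Long noncoding RNAs are made by RNA polymerase II like mRNAs, are commonly capped, spliced and polyadenylated, and carry no long open reading frame. Many are made at low levels in few cell types, and some act in place, on the gene next to which they are made, while others act elsewhere in the nucleus or cytoplasm, or have no known activity at all. Proliferation arrest of fibroblasts, in which p53 raises the CDK inhibitor CDKN1A and E2F targets such as CDK1 fall, is known to change noncoding as well as coding transcription.

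The windows around the annotated start sites of 5 LINC genes are shown because these genes are among those with the clearest patterns below. Each runs from 250 bases before to 50 bases after the most upstream exon start in the count files, in the direction of transcription, and was read from GRCh37, the build used for counting. Capitals mark matches, on either strand, to any of 7 motifs: the TATA box (TATAAA), the CCAAT box (CCAAT), the AP-1 site (TGANTCA), the cAMP response element (TGACGTCA), the E2F site (TTTNNCGC), the core of the antioxidant response element (TGACNNNGC) and the GC box (GGGCGG). The AP-1 and antioxidant patterns can cover the same bases. Of the 5 genes, LINC01094 (chr4:79566898-79567197, plus strand) and LINC01013 (chr6:132454868-132455167, plus strand) rose under ICM. LINC02753 (chr11:69911428-69911727, minus strand) fell under ICM, LINC00888 (chr3:183165146-183165445, plus strand) was higher than control in all 3 other conditions, and LINC00475 (chr9:94903499-94903798, plus strand) was lowest at 6 days of ICM and highest in MetaICM.
LINC01094: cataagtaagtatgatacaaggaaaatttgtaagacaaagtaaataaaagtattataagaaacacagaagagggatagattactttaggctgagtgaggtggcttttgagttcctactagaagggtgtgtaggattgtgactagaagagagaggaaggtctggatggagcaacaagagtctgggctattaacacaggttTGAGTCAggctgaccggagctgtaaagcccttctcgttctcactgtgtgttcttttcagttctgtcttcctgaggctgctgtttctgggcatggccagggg
LINC01013: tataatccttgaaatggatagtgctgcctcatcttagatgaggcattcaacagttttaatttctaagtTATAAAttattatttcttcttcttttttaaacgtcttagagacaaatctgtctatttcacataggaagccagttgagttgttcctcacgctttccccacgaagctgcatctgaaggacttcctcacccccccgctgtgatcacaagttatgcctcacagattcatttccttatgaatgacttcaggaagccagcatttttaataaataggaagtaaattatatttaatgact
LINC02753: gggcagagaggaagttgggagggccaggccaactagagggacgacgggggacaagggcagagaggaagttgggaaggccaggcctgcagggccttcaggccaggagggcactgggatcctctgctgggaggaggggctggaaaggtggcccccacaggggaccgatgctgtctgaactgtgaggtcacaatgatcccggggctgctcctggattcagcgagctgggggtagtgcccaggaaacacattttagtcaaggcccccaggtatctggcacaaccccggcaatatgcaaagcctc
LINC00888: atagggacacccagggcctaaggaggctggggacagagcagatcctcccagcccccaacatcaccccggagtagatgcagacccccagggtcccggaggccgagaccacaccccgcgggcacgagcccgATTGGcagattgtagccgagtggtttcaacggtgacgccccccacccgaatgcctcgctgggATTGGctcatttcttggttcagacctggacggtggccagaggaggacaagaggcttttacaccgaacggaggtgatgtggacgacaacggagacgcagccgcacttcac
LINC00475: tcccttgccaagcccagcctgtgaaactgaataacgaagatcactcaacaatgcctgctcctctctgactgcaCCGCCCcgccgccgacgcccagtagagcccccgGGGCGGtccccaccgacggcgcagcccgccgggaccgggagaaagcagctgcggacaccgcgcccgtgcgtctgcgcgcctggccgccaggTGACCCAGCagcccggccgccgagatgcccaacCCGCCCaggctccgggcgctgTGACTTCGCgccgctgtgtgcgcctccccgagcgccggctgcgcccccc

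LINC02753 holds no match, LINC01094 holds 1 AP-1 match, LINC01013 holds 1 TATA box match, LINC00888 holds 2 CCAAT matches, and LINC00475 holds 3 GC boxes and 2 antioxidant element cores. A match is a description of the letters and not a binding site. Over the 194 members, a TATA box match was found in 14.4% of windows (11.6% of the windows of all 28067 placed genes), a CCAAT match in 45.9% (35.7%), an AP-1 match in 10.8% (6.92%), a cAMP response element in 2.58% (2.14%), an E2F match in 5.15% (7.28%), an antioxidant element core in 19.1% (13.8%) and a GC box in 37.1% (47.7%). Windows of members had a median GC content of 53% against 59% over all genes. All placed genes include those with few or no reads, so these values do not compare members with expressed genes.

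Libraries held between 12095123 and 23166405 counted pairs, of which 0.102 to 0.146% fell on members. CDK1, the kinase of mitotic entry, stood at 50.3 and 45.1 CPM (counts scaled to library size with TMM factors) in control, 5.21 and 4.45 at 3 days of ICM, 2.80 and 3.82 at 6 days, and 32.6 and 34.5 in MetaICM. CDKN1A stood at 138 and 94.2 CPM in control, 812 and 635 at 3 days, 804 and 793 at 6 days, and 365 and 394 in MetaICM. All 8 fibroblast markers were detected, and their summed level was 21863 to 22424 CPM in control, 12189 to 13895 at 3 days, 10586 to 10915 at 6 days and 19379 to 20399 in MetaICM. Summed smooth muscle markers were 136 to 151, 26.5 to 31.8, 25 to 27 and 72.5 to 80.7 CPM, respectively. Summed epithelial markers were 67.3 to 103 CPM in control, 36.6 to 36.7 at 3 days, 35 to 37.1 at 6 days and 66.5 to 69.8 in MetaICM. Summed leukocyte markers were 4.34 to 6.19, 16.7 to 21.5, 18 to 20.7 and 13.1 to 13.4 CPM, with CD3E at 0 in all libraries, and endothelial markers 3.36 to 4.23, 5.72 to 5.85, 6.37 to 6.68 and 2.06 to 2.88 CPM. The part of these shifts in the LINC changes below was not tested, and RNA of fewer cells cannot be told apart from less RNA per cell.

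Members stood low among transcribed genes. Read pairs per kilobase of exon, scaled to library size (RPKM), averaged over the 8 libraries, ranged from 0.207 to 19.6 with a median of 1.23, compared with a median of 6.01 for 12964 protein-coding genes and 1.82 for 990 other long noncoding RNAs that met the same count rule. Only 17 members stood above the coding median, 81 were under 1 RPKM, and the 10 most counted members held 47.5% of the 182206 pairs on members. Their exons summed to a median of 2204 bases in a median span of 12003 bases, 28 had a single exon, and 16 spanned over 100 kb. Chromosomes 1, 2 and 21 held the most members, at 20, 16 and 14.

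The most expressed member was LINC01279 at 19.6 RPKM (chr3:112315641-112320816, minus strand). It has a single exon 2417 bases downstream of CCDC80 on the same strand, and RefSeq now lists it under CCDC80, a secreted matrix protein gene, and its reads cannot be told apart from those of a CCDC80 transcript that reads on. Next came LINC00513 at 19.3 RPKM, which lies inside LINC-PINT on the opposite strand, and LINC02595 at 14 RPKM on chromosome X. LINC00205 (12.2 RPKM), LINC01578 (10.6 RPKM), LINC00641 (9.64 RPKM), LINC02603 (9.49 RPKM), LINC01000 (9.32 RPKM), LINC02344 (8.92 RPKM), LINC01089 (8.55 RPKM), LINC00475 (8.45 RPKM) and LINC01004 (7.98 RPKM) followed. Of these, LINC01578 is CHASERR, a conserved RNA gene just upstream of the chromatin remodeller gene CHD2, which it is known to restrain. Counting used no strand information, so reads of LINC00513 and LINC-PINT, of LINC02603 and ZNF169, and of LINC02344 and STARD13, whose span holds it, cannot be fully told apart. In RefSeq 190 of the 194 members are classed as lncRNA. LINC01279 and LINC00672 (LASP1NB) are now listed as protein-coding, and LINC00643 and LINC02618 as pseudogenes.

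Libraries of one condition were compared first. The median absolute log2 difference between the 2 libraries was 0.30 in control, 0.29 at 3 days, 0.17 at 6 days and 0.21 in MetaICM, as opposed to 0.21, 0.16, 0.12 and 0.11 over genes that met the same rule. Nothing in the labels says that libraries of a condition came from separate cultures, so p-values below measure the spread between these libraries. Of the 194 members, 134 reached 10 pairs in both libraries of all 4 conditions. The other 60 had under 10 pairs in some library and entered through other conditions. This favours genes that differ between conditions, although low depth can also leave a library under 10 pairs. Their log2 changes are therefore given as descriptions, with no p-value. Where leaving out 1 library moved such a value by over 1.5 times in fold, that value is named. Fits without 1 library took the other 7 together, whereas each main fit took the 4 libraries of the 2 conditions compared. These 60 members are part of the counts over 193, 194, 188 or 185 members below, and the counts over the 134 leave them out.

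A gene is called here at an adjusted p under 0.05 (edgeR's quasi-likelihood test, Benjamini-Hochberg over all genes tested) with an absolute log2 fold change over 0.6. After 3 days of ICM, 25 of 193 tested members were called higher and 20 lower than in control. Over all 15692 genes tested, 8.85% were called higher and 13.2% lower. Among the 134 members present in all conditions, 14 were higher and 12 lower (10.4% and 8.96%), next to 8.8% and 12.6% of the genes with the same presence. After 6 days, 33 of 194 members were higher and 34 lower, where 13.3% and 17.2% of all genes were called, and among the 134 members 12.7% were higher and 18.7% lower, next to 13.2% and 16.6% of genes with the same presence. No result about members is read from these shares, which lie near those of genes at large. The median log2 change over members was 0.05 at 3 days and 0.03 at 6 days (0.01 and 0.00 over all genes). Other long noncoding RNAs that met the same count rule gave 8.49% higher and 11% lower at 3 days, with a median of -0.05. At 6 days they gave 10.7% higher and 23.9% lower, with a median of -0.20. The lower count at 3 days was the less stable of these: 33 members without control library 1 and 12 without the first 3-day library. With all 8 libraries in a single fit and none left out, 31 members were higher and 26 lower at 3 days. Both comparisons use the same 2 control libraries.

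**Figure D1:**
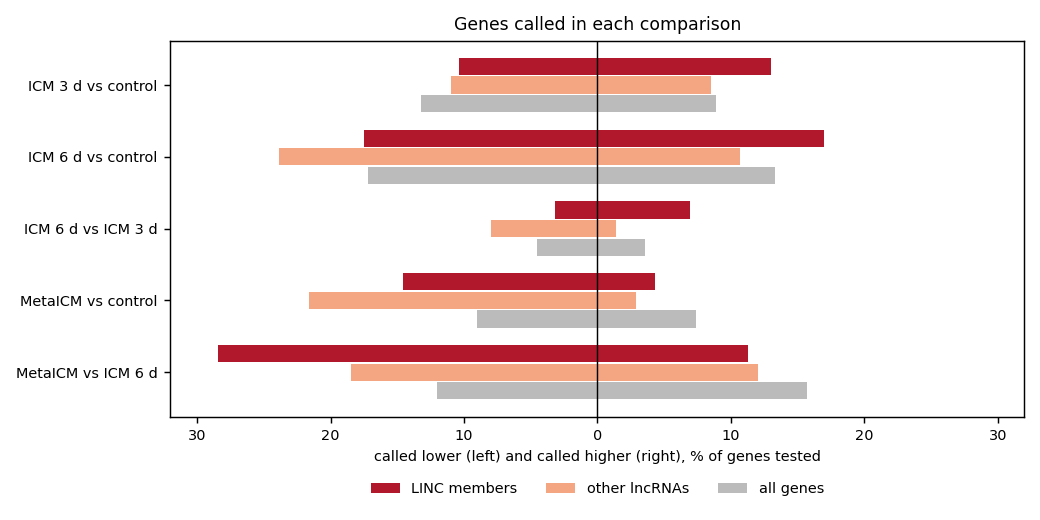
Share of genes called higher (right) or lower (left) in each of the 5 comparisons, in percent of the genes tested, for the LINC members (red), for other long noncoding RNAs that met the same count rule (orange) and for all genes (grey). The red bars reach furthest on the lower side of MetaICM against 6 days of ICM, at 28.4%.

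Several members had few read pairs in control cells and more under ICM. Pairs were counted on exons, so a change in transcription cannot be told apart from one in RNA stability. LINC02383, a gene of 35010 bases on chromosome 4 (chr4:43459551-43494560) whose nearest coding gene lies 426876 bases away, had 1 and 0 pairs in control, 40 and 18 at 3 days, 28 and 50 at 6 days, and 6 and 3 in MetaICM. Both ICM times stood above both other conditions in every library. From the summed pairs it was 46.0-fold higher at 3 days than in control (95% exact interval for counting error only, 7.94 to 1849) and 60.5-fold higher at 6 days (10.5 to 2420). LINC00536, on chromosome 8, had 11 and 1 pairs in control, 187 and 170 at 3 days, 72 and 64 at 6 days, and 1 and 0 in MetaICM. Its level was highest at 3 days, intermediate at 6 days, and in MetaICM below each control library. Its log2 difference from control was 4.58 ± 0.44 (SE) at 3 days and 3.12 ± 0.48 at 6 days. These sizes rest on the control libraries, with 6.80 and 5.36 without control library 1 and 3.91 and 2.46 without control library 2. Between 3 and 6 days the difference was -1.45 ± 0.21. LINC01069 (chr13:78553901-78568908) had 5 and 3 pairs in control, 38 and 45 at 3 days, 39 and 21 at 6 days, and 3 and 0 in MetaICM. It stood 3.05 ± 0.52 above control at 3 days and 2.50 ± 0.54 above it at 6 days on the log2 scale, and 2.00 at 6 days without the first 6-day library.

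Other members were also higher at both ICM times. LINC01094 (chr4:79567148-79605655) stood at 1.73 and 0.983 CPM in control, 5.11 and 7.05 at 3 days, 6.73 and 5.79 at 6 days, and 1.44 and 1.53 in MetaICM, so that ICM libraries lay above all others. Its log2 change was 2.10 ± 0.33 at 3 days (adjusted p = 0.00055) and 2.15 ± 0.29 at 6 days (adjusted p = 0.00024). LINC02223 (2.38 at 3 days and 2.81 at 6 days) and LINC01554 (2.02 and 2.77) were above control at both times as well, each from 1 to 6 pairs per control library. LINC01554 stood at 3.5 and 4.25 without control library 1. LINC00663, on chromosome 19, stood at 1.57 and 2.28, and at 1.30 in MetaICM against control.

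**Figure D2:**
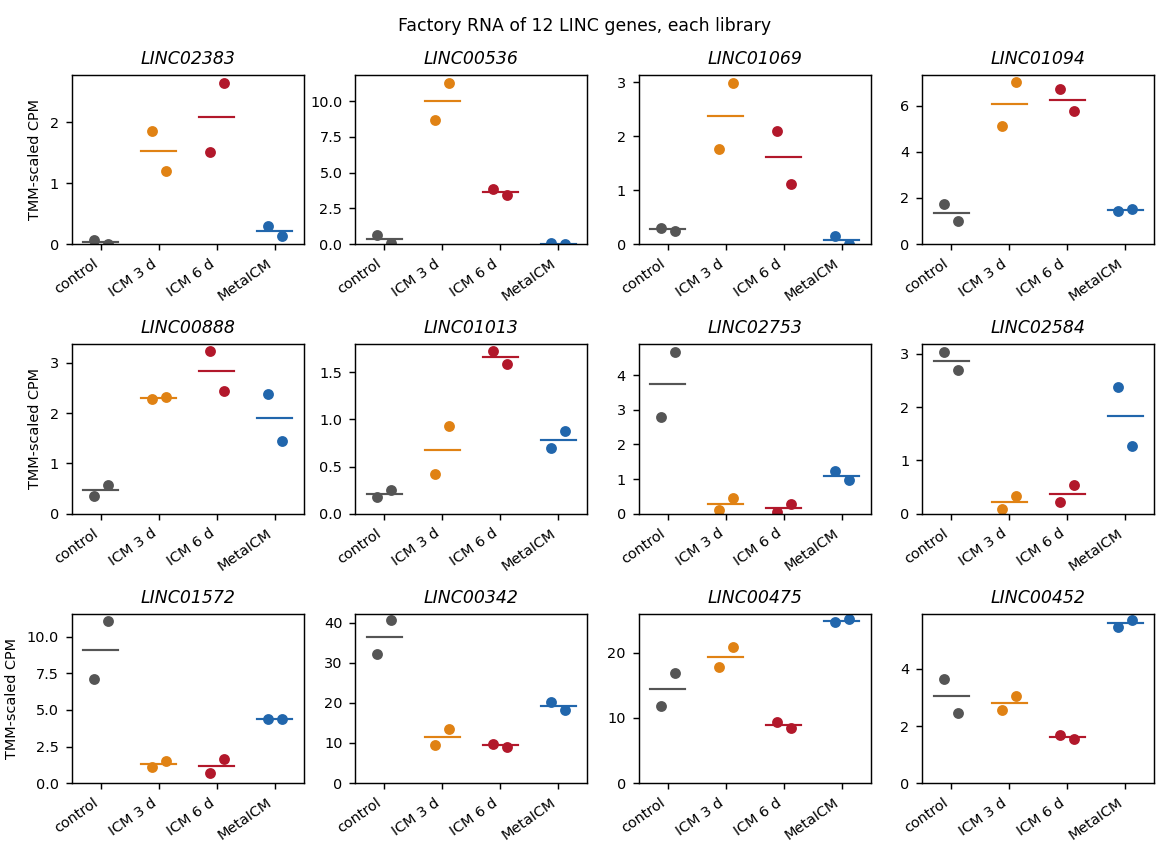
TMM-scaled CPM of 12 LINC genes in each of the 8 libraries (points) with the mean of the 2 libraries of a condition (lines); each panel has its own axis from 0. The first 4 genes were high only in the ICM libraries, LINC02753, LINC02584, LINC01572 and LINC00342 were low there, and LINC00475 and LINC00452 were lowest at 6 days and highest in MetaICM.

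A second group rose gradually or stayed high in MetaICM. LINC00968, on chromosome 8, had 3.27 and 4.83 CPM in control, 8.83 and 8.84 at 3 days, 22.3 and 20.1 at 6 days, and 4.07 and 2.36 in MetaICM. Its change from 3 to 6 days, 1.26 ± 0.14, was itself called (adjusted p = 3.1e-06). LINC01013 (chr6:132455118-132490514) had 3 and 3 pairs in control, 9 and 14 at 3 days, 32 and 30 at 6 days, and 14 and 20 in MetaICM. It was not tested at 3 days for its low counts, and stood 2.94 ± 0.49 above control at 6 days and 1.88 ± 0.58 above it in MetaICM (1.65 to 2.10 when any 1 of the 4 libraries was left out). LINC00888 (chr3:183165396-183173800), which RefSeq now lists as SNHG33, a small nucleolar RNA host gene, went from 6 and 7 pairs in control to 49 and 35 at 3 days, 60 and 46 at 6 days, and 48 and 33 in MetaICM. All libraries of the other 3 conditions exceeded both controls, with log2 differences of 2.32 ± 0.44, 2.62 ± 0.41 and 2.04 ± 0.47, and MetaICM stood at -0.59 ± 0.28 against 6 days. LINC00115 was called higher at 3 days (1.17) and in MetaICM (1.09) and not at 6 days (0.78, adjusted p = 0.091), and its MetaICM call was lost without control library 2 (0.88) and without MetaICM library 1 (0.92).

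Among the members that fell, LINC02753 (chr11:69902336-69911477) had 47 and 57 pairs in control, 2 and 7 at 3 days, 1 and 5 at 6 days, and 25 and 22 in MetaICM. LINC02584 (chr11:69918540-69921454), the next gene upstream on the same strand, had 51 and 33 pairs in control, 2 and 5 at 3 days, 4 and 10 at 6 days, and 48 and 29 in MetaICM. No ICM library of either gene overlapped a control library. The log2 differences of LINC02753 were -3.85 ± 0.56 at 3 days and -4.47 ± 0.55 at 6 days, and those of LINC02584 -3.85 ± 0.52 and -2.93 ± 0.43. Their sizes rest on few pairs. At 3 days LINC02753 gave -2.95 without the first and -5.22 without the second ICM library, and LINC02584 gave -3.08 and -4.87. At 6 days LINC02753 gave -3.75 and -5.93, and LINC02584 gave -3.70 without the second. LINC01572, which spans 384069 bases on chromosome 16 (chr16:72314801-72698869), had 119 and 135 pairs in control, 24 and 23 at 3 days, 13 and 31 at 6 days, and 88 and 100 in MetaICM. It fell by 2.80 ± 0.32 and 2.94 ± 0.37 (adjusted p = 4.7e-05 and 0.00014), the latter being -3.67 without the second 6-day library. LINC00342, singled out after its values were seen because it was the best counted of these, had 539 and 496 pairs in control, 202 and 204 at 3 days, 183 and 168 at 6 days, and 405 and 416 in MetaICM, falling by 1.68 ± 0.20 and 1.96 ± 0.17 (adjusted p = 6.6e-05 and 9.0e-06).

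Other members below control under ICM were weakly counted. LINC00901 had 51 and 35 pairs in control, 8 and 12 at 3 days, and 25 and 41 at 6 days, with log2 differences of -2.40 ± 0.42 at 3 days (-2.99 without the second 3-day library) and -0.75 ± 0.31 at 6 days. LINC02649 stood at -1.47 at 3 days and -2.32 at 6 days. LINC01820, with 19 and 17 pairs in control and 2 and 4 at 6 days, stood at -2.91 at 6 days. LINC01940 stood at -1.93 and -1.96 at the 2 times, and at -1.11 and -1.14 without control library 2 or -2.52 and -2.56 without control library 1. LINC02604 at 3 days stood at -1.95, and at -0.91 and -2.62 without control libraries 2 and 1. LINC02015 at 6 days stood at -2.03, at -1.31 without control library 1 and at -2.87 without the first 6-day library. The last 3 genes thus depended on single libraries.

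**Figure D3:**
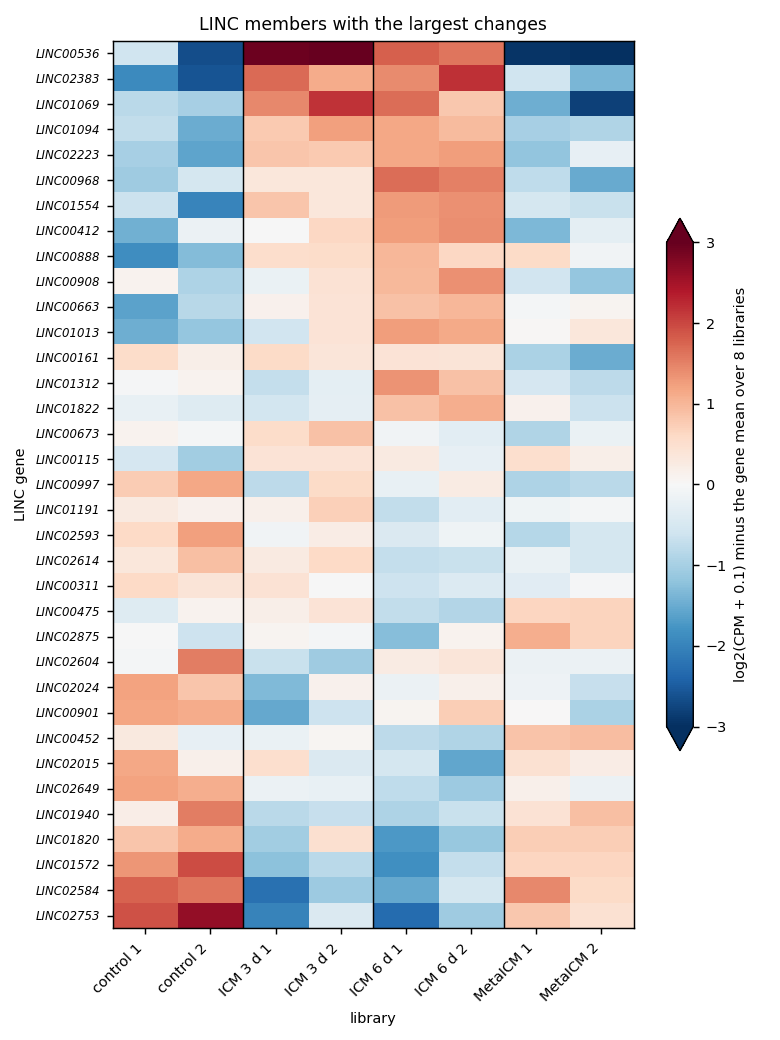
Heat map of the 35 members with the largest called changes in any comparison, by library. Colour gives log2(CPM + 0.1) minus the mean of the gene over the 8 libraries, red for above and blue for below, and rows are sorted by the mean of the 4 ICM libraries. The top rows are red in ICM libraries only, and the bottom rows are blue there and pale red in MetaICM.

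Members at 6 days of ICM were next compared directly with 3 days. Here 13 of 188 tested members were called higher and 6 lower at 6 days, beside 3.53% and 4.54% of all genes tested, and 8 and 5 of the 134 members present in all conditions (5.97% and 3.73%, next to 3.35% and 4.5% of genes with the same presence). Of 978 other long noncoding RNAs tested that met the same count rule, 1.43% were higher and 7.98% lower. The largest difference upwards among members was that of LINC01312 (chr6:134142285-134175130), at 8 and 8 pairs at 3 days and 35 and 25 at 6 days, or 1.84 ± 0.44. LINC00901 (1.65), LINC01013 (1.36) and LINC00908 (1.17) are likewise descriptions, with LINC00901 at 2.24 and LINC01013 at 1.98 without the second 3-day library. Of the 134, LINC01822 (1.47) and LINC00968 (1.26) rose most, and LINC01279 rose by 0.83 ± 0.11 (adjusted p = 1.8e-05). Decreases among the 134 were those of LINC02614 (-1.16), LINC00475 (-1.12), LINC01191 (-0.99), LINC00673 (-0.95) and LINC00311 (-0.80). LINC00475 had 383 and 314 pairs at 3 days and 174 and 159 at 6 days, without overlap (adjusted p = 2.4e-05). These counts moved when 1 library was left out, and were 9 higher and 5 lower with all 8 libraries in a single fit. The higher count ran from 2 without the first 3-day library to 8 without the second, and was 3 without either 6-day library. The lower count ran from 12 without the first 3-day library to 2 without any other. Of the called increases and decreases among the 134 named in this paragraph, only the calls of LINC00968, LINC01279 and LINC00475 held under every alternative setting tried.

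In MetaICM, members were lower as a group, by count. Against control, 8 of 185 tested members were called higher and 27 lower, whereas 7.41% and 8.99% of all genes were called, and of the 134 members present in all conditions 4 were higher and 22 lower (2.99% and 16.4%, as opposed to 7.7% and 8.98% of genes with the same presence). The median log2 change was -0.19 over tested members, -0.26 over the 134, and 0.00 over all genes. The 974 other long noncoding RNAs tested that met the same rule gave 2.87% higher and 21.6% lower with a median of -0.35, so other lncRNAs showed the same lean. Members took 0.111 and 0.102% of pairs in the MetaICM libraries against 0.121 and 0.140% in control, and other lncRNAs took 1.78 and 1.73% against 2.17 and 3.01%. MetaICM was the condition of the lowest mean CPM for 68 members (35.1%, compared with 24.2% of genes that met the count rule) and of the highest for 33 (17.0%, compared with 26.4%). The lower count fell to 9 without MetaICM library 2, the library with the lowest share on members, and was up to 32 without another library. The higher count was 3 without control library 2 or MetaICM library 1, and 4 without MetaICM library 2.

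LINC00997, a single-exon gene (chr7:32797898-32802536), showed the largest such decrease, with 10.8 and 14.3 CPM in control, 3.63 and 9.50 at 3 days, 5.44 and 7.59 at 6 days, and 3.32 and 3.59 in MetaICM. It was 1.87 ± 0.21 below control in MetaICM (adjusted p = 0.00038) and held that call under all alternatives. LINC00161, on chromosome 21, had 29 and 16 pairs in control, 38 and 23 at 3 days, 29 and 29 at 6 days, and 11 and 8 in MetaICM. In MetaICM it stood at -1.80 ± 0.43 against control and -1.80 ± 0.39 against 6 days, with 0.10 at 3 days and 0.00 at 6 days against control. LINC01004 was among the better counted, with 70.2 and 76.4 CPM in control and 45.6 and 41.1 in MetaICM, a difference of -0.77 ± 0.12 (adjusted p = 0.0018). LINC02593 (-1.75) and LINC02024 (-1.53) were also called lower, the latter losing its call without MetaICM library 2 (-1.25). LINC02753 stood at -1.75 and LINC00901 at -1.67 (-2.26 without MetaICM library 1).

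Only LINC00475 and LINC00452 were called in opposite directions against control. LINC00475 (chr9:94903749-94921890) stood at 11.9 and 16.9 CPM in control, 17.8 and 20.9 at 3 days, 9.37 and 8.44 at 6 days, and 24.7 and 25.2 in MetaICM, with 6-day libraries below and MetaICM libraries above all others. It was -0.70 ± 0.20 at 6 days (adjusted p = 0.018) and 0.79 ± 0.17 in MetaICM (adjusted p = 0.0088). LINC00452 (chr13:114598076-114624290) was -0.95 ± 0.31 and 0.84 ± 0.24 (adjusted p = 0.029 and 0.028). Their calls against control rested on single libraries, these among others. LINC00475 gave -0.42 at 6 days without control library 2 and 0.56 in MetaICM without control library 1, and LINC00452 gave -0.62 without control library 1 and 0.62 without control library 2. The direct differences between MetaICM and 6 days, 1.48 ± 0.11 for LINC00475 and 1.79 ± 0.22 for LINC00452 (adjusted p = 5.2e-10 and 8.0e-07), held under all alternatives. LINC02875, 2285 bases from TBX2, stood at 1.19 in MetaICM against control and 1.38 against 6 days (2.37 without the second 6-day library and 0.80 without the first), and LINC00663 stood at 1.30 against control.

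The largest counts of called members came from MetaICM against 6 days of ICM. Of 194 members, 22 were called higher and 55 lower in MetaICM, where all genes gave 15.7% and 12%, and of the 134 members present in all conditions 9.7% were higher and 25.4% lower (15% and 11.1% of genes with the same presence). The 983 other long noncoding RNAs tested that met the same rule leaned lower too, with 12% higher and 18.5% lower. Their median log2 change was -0.09, and that of members -0.19. Over the alternatives that left out 1 library, 11 to 15 were higher and 29 to 38 lower, the lowest being 11 without the first 6-day library and 29 without MetaICM library 2. LINC00536 fell from 136 summed pairs to 1, a 156-fold difference (95% exact interval for counting error only, 27.6 to 6224), and LINC01069 from 60 to 3, or 23.0-fold (7.5 to 115). LINC02383 (-3.28), LINC00908 (-2.32) and LINC00412 (-2.28) also stood far lower, with -3.93 for LINC02383 without MetaICM library 1 and -3.15 for LINC00412 without MetaICM library 2. Of the 134, LINC00968 (-2.74) and LINC01094 (-2.07) fell most and kept their call under every alternative. Upwards, LINC02753 (2.72), LINC01820 (2.65), LINC02584 (2.25) and LINC01940 (1.68) stood furthest among the weakly counted members, and without the second 6-day library LINC02753 gave 4.19 and LINC02584 3.03. LINC02753 gave 2.01 without the first. Of the 134, LINC01572 (1.88) and LINC00452 (1.79) rose most. LINC01572 had 13 and 31 pairs at 6 days and 88 and 100 in MetaICM, and stood at 2.63 without the second 6-day library. Of the genes that were higher under ICM, LINC01094 and LINC00968 stood at 0.08 and -0.34 in MetaICM against control without a call.

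Members lie next to coding genes in different arrangements. By the coordinates in the count files (hg19), 25 had exon bases within the span of another gene on its opposite strand and 10 on its same strand. A further 17 started within 5 kb of a coding gene that is transcribed away from them (head to head). Another 19 began within 10 kb downstream of a gene on the same strand, and 123 were in none of these positions. A member in several positions was counted once, in the order same strand, opposite strand, head to head, downstream.

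The locus of ANO1, which encodes a calcium-activated chloride channel, showed the closest parallel. ANO1 had 50.9 and 43.3 CPM in control, 3.53 and 2.66 at 3 days, 8.19 and 8.13 at 6 days, and 56.4 and 51.2 in MetaICM. LINC02584 starts 3192 bases from ANO1 in the opposite direction and LINC02753 lies 13169 bases away. At 3 days ANO1 fell by 3.91 and both LINC genes stood at -3.85, and at 6 days ANO1 fell by 2.54, with LINC02584 at -2.93 and LINC02753 at -4.47. In MetaICM against control, ANO1 stood at 0.17 without a call (adjusted p = 0.32), LINC02584 at -0.69 and LINC02753 at -1.75.

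Other neighbours moved with a member in some comparisons. LINC00452 and LINC00565 (the latter named after its values were seen), 31027 and 62438 bases from GAS6 (a ligand of TAM receptor kinases), were 1.79 and 1.66 higher in MetaICM than at 6 days, and GAS6 was 1.89 higher, rising from 186 and 205 to 718 and 736 CPM. LINC01312 lies on the opposite strand inside TARID, an antisense RNA gene of TCF21, a mesenchymal transcription factor gene whose nearest end is 35121 bases away. LINC01312 and TCF21 were 1.84 and 1.59 higher at 6 days than at 3 days, and 2.01 and 1.29 lower in MetaICM than at 6 days. LINC01069 lies 4239 bases from EDNRB, the endothelin receptor type B gene, which rose by 0.88 at 6 days where LINC01069 stood at 2.50, and was 1.16 lower in MetaICM than at 6 days. LINC01820 lies 5596 bases from EPAS1, the gene of hypoxia-inducible factor HIF-2alpha, which fell by 0.66 at 6 days where LINC01820 stood at -2.91. LINC01126 starts 605 bases from ZFP36L2, an mRNA decay factor gene, head to head. It was 1.68 higher in MetaICM than at 6 days, and ZFP36L2 was 0.79 higher.

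Proximity did not go with parallel change throughout. LINC01094 rose by 2.10 and 2.15 under ICM whereas ANXA3, 35549 bases away, fell by 0.94 and 1.02. LINC01521, 413 bases head to head from PATZ1, stood at 0.41 and 0.37 without a call while PATZ1 fell by 0.95 and 1.24. LINC01089, one of the better expressed members, stood at 0.15 and -0.02 while SETD1B, 1778 bases head to head from it, fell by 0.79 and 0.96. LINC01578 stood at -0.27 at 3 days while CHD2 rose by 0.66, and neither was called at 6 days (-0.59 and 0.45).

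**Figure D4:**
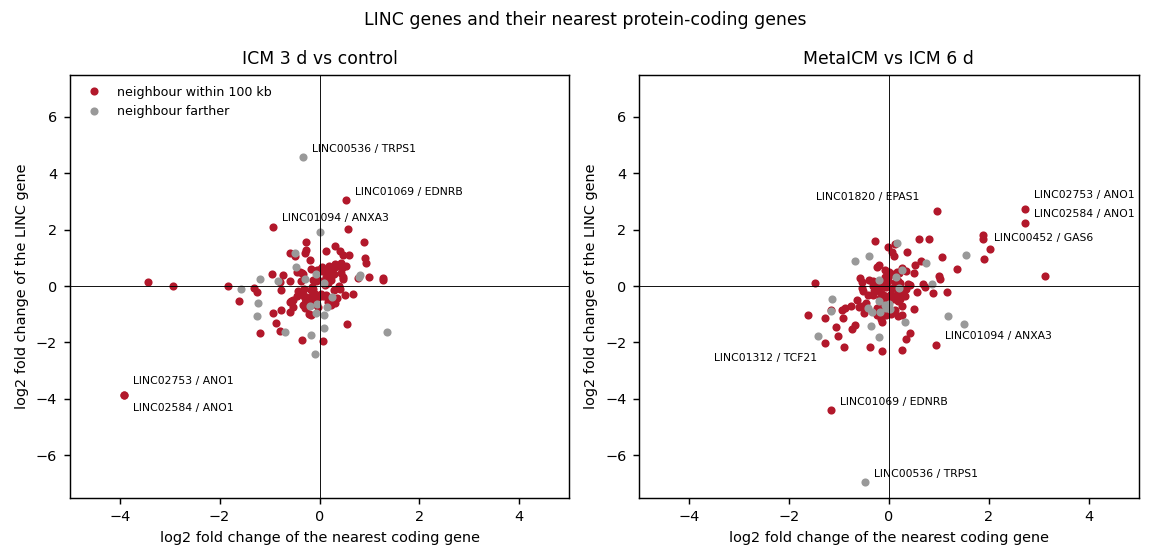
Log2 fold change of a LINC member (vertical axis) against that of its neighbouring protein-coding gene (horizontal axis) for 3 days of ICM against control and for MetaICM against 6 days of ICM. The neighbour is the head-to-head gene where there is one, and otherwise the nearest gene. Red points have the neighbour within 100 kb. The ANO1 pairs lie far out along the diagonal in both panels, and LINC01094 with ANXA3 lies off it.

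Each member was paired with its head-to-head coding gene within 5 kb where it had one, and otherwise with its nearest coding gene. Across pairs in which both were tested, Pearson's r of the log2 changes was 0.37 at 3 days (152 pairs), 0.35 at 6 days (155 pairs) and 0.48 for MetaICM against 6 days (156 pairs), with Spearman's rho of 0.30, 0.28 and 0.44. It was 0.14 for 6 against 3 days (151 pairs) and 0.17 for MetaICM against control (147 pairs). Without the ANO1 locus, r was 0.17 at 3 days, 0.25 at 6 days and 0.42 for MetaICM against 6 days. Over pairs within 100 kb, r was 0.49 at 3 days, 0.43 at 6 days, 0.20 for 6 against 3 days, 0.14 for MetaICM against control and 0.56 for MetaICM against 6 days. For coding genes and their nearest coding gene within 100 kb it was 0.24, 0.24, 0.22, 0.26 and 0.31 in the same order, over 6868 to 7078 pairs. The member values within 100 kb include the ANO1 locus and were not computed without it. Head-to-head pairs alone gave 0.83 at 3 days, and 0.28 without that locus. The gap between members and coding genes is therefore not read as a trait of LINC genes. Genes are not replicates, the fits share libraries, and these values are descriptions.

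Members were also described by base composition around the start site. Windows with a GC content over 50% and an observed to expected CpG ratio over 0.6, the usual mark of CpG island promoters, were found at 67 of 194 members (34.5%), compared with 49.7% of all genes and 61.4% of coding genes. The last 2 shares include genes with few or no reads here. Of the genes tested at 6 days of ICM, 10939 had such a window and 5010 did not (9976 and 3340 for coding genes). At 6 days of ICM, 7 of the 67 CpG-rich members were called higher and 6 lower (10.4% and 8.96%), and 26 and 28 of the other 127 (20.5% and 22.0%). All tested genes gave 12.8% and 15.4% with CpG-rich and 14.4% and 21% with other windows. These shares and those below are counts that include the 60 members under 10 pairs in some library. They were not computed for the 134 present in all conditions, nor for genes with the same presence. The difference between the classes was not tested. In MetaICM against 6 days, 46 of the 127 other members were lower (36.2%) and 9 of the 67 CpG-rich ones (13.4%), beside 17.3% and 9.60% of all genes. The median log2 change in this comparison was -0.37 over members without and -0.03 over members with a CpG-rich window. Median RPKM was 1.2 and 1.35 in these classes, and a median member had 264 and 395 pairs in all.

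**Figure D5:**
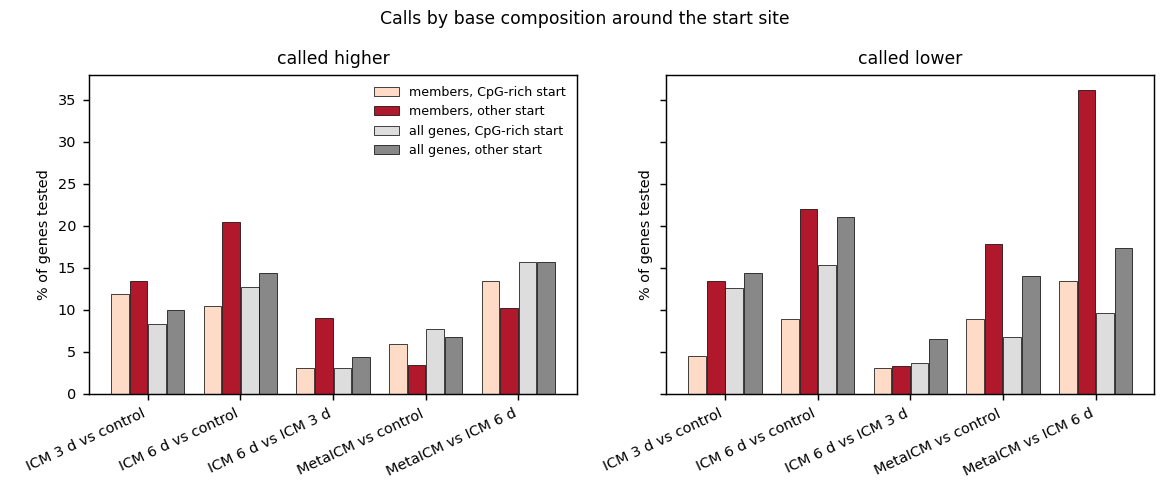
Percent of tested genes called higher (left) or lower (right) in the 5 comparisons, for members and for all genes, split by whether the window around the start site is CpG-rich. The tallest bar is that of members without a CpG-rich window that were lower in MetaICM than at 6 days, at 36.2%. Members under 10 pairs in some library are included.

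Of 34 LINC genes listed here as studied by name, mostly for effects on the growth or spread of tumour cells, 24 were in the count files and 16 were members. Most of them did not pass the test. Of the 16 members, 1 was called higher and 2 lower at 3 days of ICM (8.85% and 13.2% of all genes), 2 higher and 1 lower at 6 days (13.3% and 17.2%), and 0 higher and 2 lower in MetaICM against control (7.41% and 8.99%). Against 3 days, 1 was higher and 1 lower at 6 days (3.53% and 4.54%), and in MetaICM against 6 days 0 were higher and 4 lower (15.7% and 12%). LINC00205, head to head with the fucosyltransferase gene POFUT2 at 139 bases, had 63.8 and 60.3 CPM in control, 114 and 99.4 at 3 days, 101 and 104 at 6 days, and 80.1 and 78.0 in MetaICM. Both its ICM calls, 0.77 ± 0.13 and 0.71 ± 0.11 (adjusted p = 0.00085 and 0.00058), held under every alternative, and POFUT2 stood at 0.31 and 0.54 without a call. LINC00839 rose by 1.12 at 6 days, and LINC00662 fell at both times (-0.74 and -1.04) and in MetaICM (-0.70), with calls that were lost without control library 2 at 3 days (-0.60) and in MetaICM (-0.55), and without the second 6-day library (-0.70), among others. LINC00472 was 0.74 lower in MetaICM than at 6 days, lost without MetaICM library 2 (-0.54). LINC00941, LINC00963, LINC00467, LINC00339, LINC01128, LINC00265, LINC00667, LINC00324 and LINC00319 passed in no comparison. Of these LINC00324 had the largest value, 1.06 at 3 days, and the other values lay between -0.57 and 1.03.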

How the data were processed

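Factory RNA-Seq libraries of IMR90 cells (2 per condition) were labelled as poly(A)-selected. Per the file headers, the authors made the deposited counts with featureCounts on hg19 RefSeq exons, counting primary, properly placed read pairs without strand; the labels name STAR and GRCh37. The authors' own analysis (RUVs with DESeq2, intronic counts) was not repeated. Members and gene lists were chosen with earlier results of these data known. Each pair of conditions was fitted alone with edgeR 4.0.16 (R 4.3.3; TMM, filterByExpr at 10 counts, quasi-likelihood test, Benjamini-Hochberg over all genes tested) and tested on simulated data. Genes named were the 12 members highest by RPKM, the 6 largest called changes per direction and comparison, members called in opposite directions against control, listed LINC genes, and members head to head with a called coding gene. Ratios of low counts carry exact binomial intervals for counting error only. Libraries held 12095123 to 23166405 pairs. Neighbours came from hg19, and start-site windows from GRCh37. Alternatives included DESeq2 1.42.0, other scalings and filters, thinning, a replicate block, all 8 libraries in a single fit and leaving out each library. Fits without 1 library took the other 7 together, unlike the main fits.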

Additional observations from a re-analysis of the deposited data

Results flagged for a closer look

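The 3-day and 6-day effects of ICM share their control libraries, and their difference is the direct comparison of 6 with 3 days. Of 188 tested members, 19 passed it (edgeR's quasi-likelihood test, Benjamini-Hochberg over all genes tested, log2 fold change over 0.6 in size). That is 10.1%, beside 8.07% of all genes tested. Among members present in all conditions it was 9.7%, beside 7.85% of genes with the same presence. No result about members is read from these shares. Log2 changes were above 0 for LINC01312 (1.84), LINC00901 (1.65), LINC01822 (1.47), LINC01013 (1.36), LINC00968 (1.26), LINC00908 (1.17), LINC00412 (1.12), LINC01111 (1.03), LINC00535 (1.02), LINC01535 (0.94), LINC01279 (0.83), LINC02256 (0.63) and LINC02762 (0.62). They were below 0 for LINC00536 (-1.45), LINC02614 (-1.16), LINC00475 (-1.12), LINC01191 (-0.99), LINC00673 (-0.95) and LINC00311 (-0.80). LINC00412, LINC00536, LINC00901, LINC00908, LINC01013 and LINC01312 had under 10 pairs in a library of some condition, so their values are descriptions. With 2 libraries in each condition, no group was large enough to be screened for a library far from the others.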

How the results depend on the processing

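Of 125 called results for named members, 54 kept their call under every alternative, and none changed direction in any of the 1693 values computed. Calls were lost in 258 of these values. Counts of called members moved by over 1.5 times under the following settings, and the cause was not tested. With DESeq2, 11 members were higher and 10 lower at 3 days, 5 higher at 6 against 3 days, 2 higher and 14 lower in MetaICM against control, and 14 higher in MetaICM against 6 days. With at least 10 counts in every library, 14, 17 and 5 members were higher at 3 days, at 6 days and in MetaICM against control. At an adjusted p under 0.01, 9 were higher and 8 lower at 3 days, 18 lower at 6 days, 6 higher at 6 against 3 days, and 1 higher and 11 lower in MetaICM against control. Thinning to the smallest library left 8 higher at 6 against 3 days, and testing all genes with a count gave 13 higher in MetaICM against control. Within 1.5 times of the main counts, a single fit of all 8 libraries gave 31 higher and 26 lower at 3 days. It gave 36 and 35 at 6 days, 9 and 5 at 6 against 3 days, 11 and 32 in MetaICM against control, and 18 and 50 in MetaICM against 6 days. Fits without 1 library also took the other 7 together, unlike the main fits. Leaving out 1 library gave 22 to 27 higher and 12 to 33 lower at 3 days, 28 to 37 and 24 to 30 at 6 days, 2 to 8 and 2 to 12 at 6 against 3 days, 3 to 9 and 9 to 32 in MetaICM against control, and 11 to 15 and 29 to 38 in MetaICM against 6 days.

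A fit with the replicate number as a block gave 31 members lower at 3 days and 11 lower at 6 against 3 days, and ended the call of LINC01279 at 3 days (-0.59). Differences between the libraries of a condition correlated between conditions at -0.15 to 0.26, so the numbers were not taken to pair libraries.

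Depth limits these results, since a median member had 294 pairs over 8 libraries. Each condition has 2 libraries, and a call that misses the threshold does not show that levels were alike.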

Other observations

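Named long noncoding RNAs outside the LINC scheme gave the following values, from lists chosen with earlier results known. Of 66 listed, 65 were in the count files. At 3 days of ICM 11 of 54 tested were called higher and 8 lower than control (8.85% and 13.2% of all genes), and at 6 days 10 of 55 were higher and 5 lower (13.3% and 17.2%). In MetaICM 4 of 54 were higher and 10 lower than control (7.41% and 8.99%), and 3 of 55 higher and 12 lower than at 6 days (15.7% and 12%). At 6 against 3 days, 0 of 56 were higher and 5 lower (3.53% and 4.54%). CARMN, a host gene of smooth muscle microRNAs, changed by -1.83 at 3 days, -5.14 at 6 days and -1.62 in MetaICM on the log2 scale. Summed smooth muscle markers ran from 136 to 151 CPM in control and from 25 to 27 at 6 days, and their part in this was not tested. MIR210HG, the host gene of a hypoxia-induced microRNA, rose by 2.83 and 2.66 under ICM.

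Of 15 lncRNAs linked to p53, 9 were tested. At 3 days PURPL (3.65), MIR34AHG (1.21) and NEAT1 (0.88) were called higher and none lower, and at 6 days PURPL (3.94), MIR34AHG (1.15) and LINC-PINT (0.60) were higher and none lower, NEAT1 standing at -0.27. All genes gave 8.85% higher at 3 days and 13.3% at 6 days. Against control in MetaICM, PURPL (2.55) and NORAD (0.74) were higher and NEAT1 (-0.82) lower. NEAT1 was also lower at 6 than at 3 days (-1.15), and PURPL (-1.39), LINC-PINT (-0.97) and MIR34AHG (-0.62) were lower in MetaICM than at 6 days.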
